A study of Mus musculus with 9 samples.

Results

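The 10 genes described here, Thap1, Taf1, Kmt2b, Ciz1, Prkra, Spr, Pank2, Pnkd, Sgce and Tubb4a, are genes tied to dystonia in people that lie outside the torsin and cAMP pathways. They were chosen by name: every probe set whose platform gene symbol was one of the 10 was taken, which gave 17 probe sets of 45037 on the array. Of these genes, 4 had 1 probe set, 5 had 2 and 1, Pank2, had 3, and all 10 symbols stood unchanged in a current RefSeq gene table. Gene expression had been measured on Affymetrix 3' expression arrays in spinal cord from 3 mice, each of which gave an intermediate, a dorsal and a ventral piece, so that every region had 3 arrays and 9 arrays were made in all. All 3 groups, intermediate, dorsal and ventral, came from animals of postnatal day 6 with the genotype GAD65-GFP, a transgene that puts a fluorescent protein under the promoter of GAD65, an enzyme that makes the inhibitory transmitter GABA. No region was taken from an animal without that transgene. No sort of fluorescent cells is named in the labels, so the values were treated as those of whole tissue pieces. The series asks what part dystonia genes play in the GABA-using interneurons of the cord, and the regions are its only contrast. In pieces of tissue, fewer cells of a type and less RNA per cell cannot be told apart.

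Dystonia is a disorder of sustained or repeated muscle contractions and twisted postures, and the genes behind its inherited forms work in several unrelated processes. Thap1, Taf1, Kmt2b and Ciz1 encode nuclear proteins: a zinc-finger transcription factor, the scaffold subunit of the general transcription factor TFIID, a histone H3 lysine methyltransferase, and a zinc-finger protein that binds the cell-cycle inhibitor encoded by Cdkn1a. Prkra encodes PACT, the protein that activates the stress kinase PKR. Spr encodes sepiapterin reductase, which completes the synthesis of tetrahydrobiopterin, the cofactor that dopamine and serotonin synthesis need, and Pank2 encodes a pantothenate kinase, which starts the synthesis of coenzyme A. Pnkd is altered in paroxysmal non-kinesigenic dyskinesia, and its product resembles the glyoxalase enzymes and binds the RIM proteins of the presynaptic active zone. Sgce encodes epsilon-sarcoglycan, a membrane glycoprotein altered in myoclonus-dystonia, and Tubb4a encodes a beta-tubulin of the nervous system, altered in a form of dystonia and in a disorder of myelination.

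Promoter windows, each running from 250 bases before to 50 bases after a gene start, were read from the RefSeq table of GRCm38.p6 for 7 of the 10 genes, 10 windows in all; Thap1, Sgce and Kmt2b had no entry in it. Windows are shown for the 4 genes that differed between regions in the F test given further on and had an entry, so that genes with different regional patterns can be read side by side. They lie at chr1:74332360-74332659 on the plus strand (Pnkd), and on the minus strand at chr6:85137715-85138014 (Spr), chr2:76647978-76648277 (Prkra) and chr17:57087551-57087850 (Tubb4a). Each is written 5′ to 3′ along the gene's strand, and capitals mark GGGCGG, the letters that SP1 binds, or its reverse complement.
Pnkd: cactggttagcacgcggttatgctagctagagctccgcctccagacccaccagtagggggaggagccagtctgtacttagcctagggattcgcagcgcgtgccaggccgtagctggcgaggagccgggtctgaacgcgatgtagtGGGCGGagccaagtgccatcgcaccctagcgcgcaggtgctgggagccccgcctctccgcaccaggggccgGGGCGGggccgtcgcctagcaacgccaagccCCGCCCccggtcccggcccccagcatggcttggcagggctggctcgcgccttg
Spr: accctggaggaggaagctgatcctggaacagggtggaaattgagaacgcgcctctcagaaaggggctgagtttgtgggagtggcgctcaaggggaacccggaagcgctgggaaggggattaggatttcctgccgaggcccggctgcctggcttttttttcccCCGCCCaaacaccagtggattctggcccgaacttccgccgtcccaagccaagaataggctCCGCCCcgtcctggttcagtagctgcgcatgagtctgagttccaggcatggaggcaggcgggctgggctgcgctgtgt
Prkra: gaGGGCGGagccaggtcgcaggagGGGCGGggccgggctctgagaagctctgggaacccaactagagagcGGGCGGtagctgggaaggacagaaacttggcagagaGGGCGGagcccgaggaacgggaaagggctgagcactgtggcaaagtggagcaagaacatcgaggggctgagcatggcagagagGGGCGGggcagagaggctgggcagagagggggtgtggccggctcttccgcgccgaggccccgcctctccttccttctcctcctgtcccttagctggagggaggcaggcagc
Tubb4a: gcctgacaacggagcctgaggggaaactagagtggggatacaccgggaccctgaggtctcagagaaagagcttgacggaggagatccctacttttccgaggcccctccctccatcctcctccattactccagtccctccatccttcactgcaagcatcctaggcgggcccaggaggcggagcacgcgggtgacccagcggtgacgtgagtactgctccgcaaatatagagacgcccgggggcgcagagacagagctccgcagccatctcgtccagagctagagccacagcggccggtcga
The window of Prkra held 5 such matches, that of Pnkd 3 and that of Spr 2, whereas the window of Tubb4a held 0. Of the 10 windows read, 7 held GGGCGG on either strand, against 35.7% of the 32851 promoter windows in the table. Entries under the gene symbols on a chromosome that carries none of the 10 genes had been left out of the 10. The core letters bound by human THAP1, TNNGGCA, were searched on both strands too. They stood in 4 of 10 windows, against 40% of all windows. Those were both of Ciz1, the single one of Prkra and 1 of 3 of Pank2. The windows of Ciz1 overlap each other, so their matches may be the same letters. Of the TNNGGCA matches, 0 overlapped another searched motif. CCAAT stood in 3 of 10 windows against 37.4% of all, and TATAAA in 0 of 10 against 13.6%. A match describes letters only, and binding was not measured.

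The deposited values ran from 2.146 to 16.27 and were read as log2 values. No label states the scale, and every fold below rests on that reading. On each array, 35.97% to 36.26% of probe sets stood within 0.01 of the lowest value, called the floor here, and array medians ran from 3.66 to 3.75. Arrays of different regions correlated across probe sets at 0.982 to 0.995. The 8 dorsal horn neuron markers, such as Lmx1b and Tac1, were all called lower in intermediate than in dorsal pieces, with a list mean of 5.99 to 6.86 in intermediate, 9.27 to 9.64 in dorsal and 4.77 to 4.83 in ventral pieces. Of 6 motor neuron markers, Mnx1, Isl1 and Prph gave a mean of 3.67 to 3.96 in intermediate, 2.15 to 2.35 in dorsal and 5.98 to 6.60 in ventral pieces, whereas Chat, Slc18a3 and Slc5a7 were listed at the floor on all 9 arrays, the ventral ones included. Meningeal and fibroblast markers averaged 7.05 to 7.66 in intermediate, 9.92 to 11.2 in dorsal and 10.5 to 11.1 in ventral pieces, and the 3 measured Schwann cell markers 5.01 to 5.54, 8.79 to 11.6 and 9.63 to 10.2 in the same order. The 4 measured inhibitory neuron markers averaged 11.7 to 11.8 in intermediate, 10.96 to 11.12 in dorsal and 9.92 to 10.1 in ventral pieces. In intermediate against dorsal pieces 3 of them were called higher, among them Gad2, which encodes GAD65. Gad1 was called lower there (-1.06, adjusted p = 0.00216).

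Regional differences were found for most of the 10 genes, in different directions. Pnkd and Spr were lowest in dorsal pieces, Sgce and Tubb4a were highest in ventral pieces, Kmt2b and Prkra were lowest in ventral pieces, Taf1 passed the test for dorsal against ventral pieces alone, and Thap1, Ciz1 and Pank2 passed no test in any contrast. Of the 17 probe sets, 16 were tested with limma, with region and animal in the model, since 1 of Prkra stood at the floor on all arrays. By the F test over the 3 regions, 7 of the 16 were called at an adjusted p under 0.05, against 49.1% of all 30305 probe sets tested, and by the brightest probe set of each gene 6 of 10 genes were called, against 58.3% of 13565 genes. In the contrast of intermediate with dorsal pieces, 4 of 16 probe sets were called, all higher, where 24.5% of all were called, 11.6% higher and 12.9% lower, and 3 of 10 genes were, where 29.5% of genes were. In the contrast of intermediate with ventral pieces 5 of 16 were called, 2 higher and 3 lower, where 39% of all were called, 19% higher and 20% lower, and 4 of 10 genes were, where 48% of genes were. In that of dorsal with ventral pieces 8 of 16 were called, 3 higher and 5 lower, where 45.4% of all were called, 22.7% in each direction, and 7 of 10 genes were, where 53.3% of genes were. The 3 values of each region did not overlap for 5 of 16 probe sets in the contrast of intermediate with dorsal pieces (37.4% of all), 6 in that of intermediate with ventral (50.1%) and 10 in that of dorsal with ventral pieces (54%). These shares, 43.8% for the F test and 25%, 31.2% and 50% for the contrasts, lie near the background, so the count of calls does not set these genes apart from the array. By the brightest probe set, the median difference over the 10 genes was -0.01 for intermediate minus dorsal, 0.02 for intermediate minus ventral and -0.11 for dorsal minus ventral on the log2 scale, and the median over all genes was 0.00 in each contrast.

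**Figure D1:**
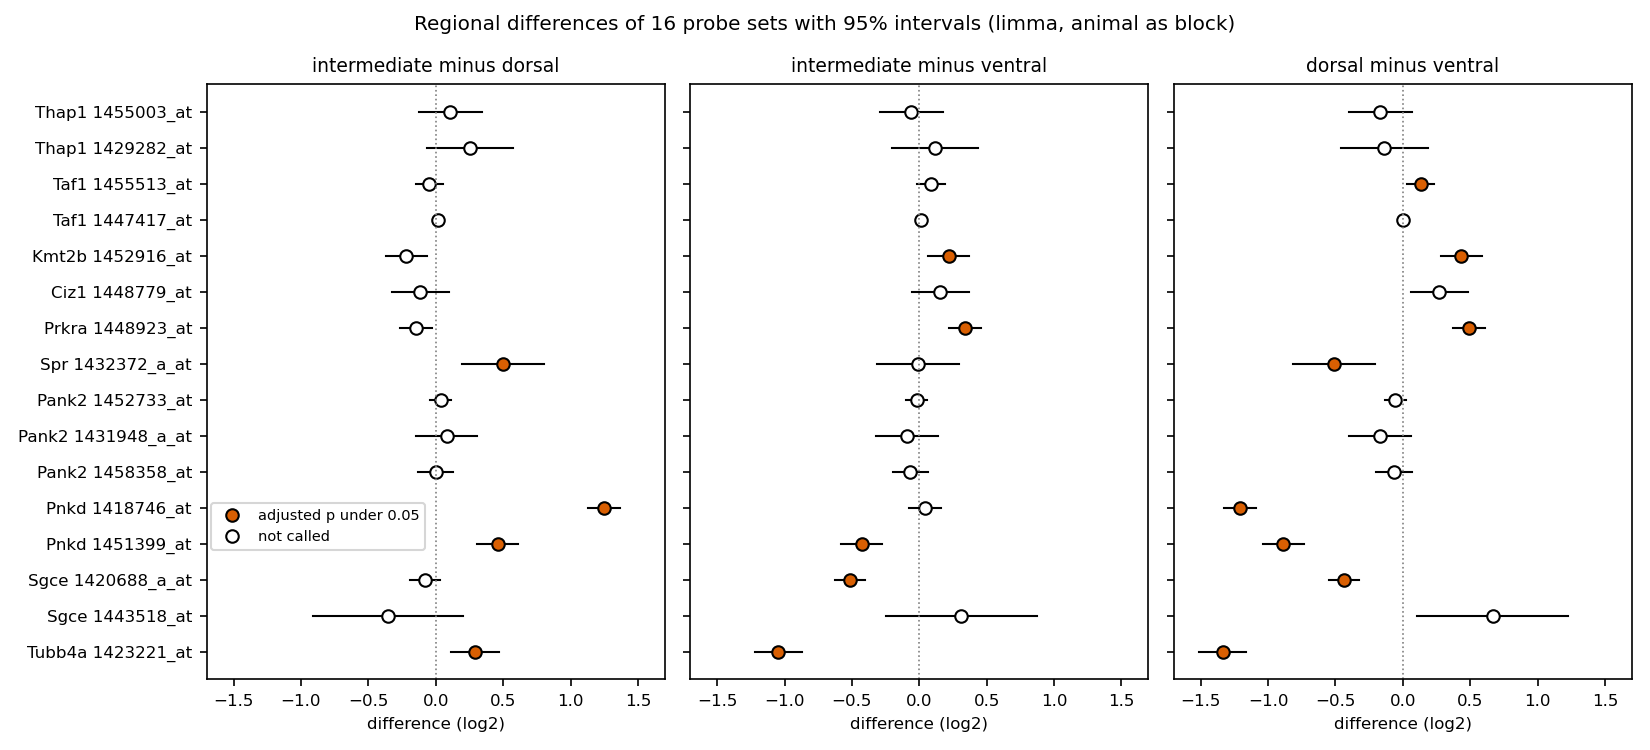
Differences of the 16 probe sets tested (log2, horizontal axes) in the contrasts intermediate minus dorsal, intermediate minus ventral and dorsal minus ventral, with 95% intervals of the limma fit; filled points have an adjusted p under 0.05. The 2 Pnkd probe sets lie to the right in the first panel and to the left in the last, Tubb4a lies far left in both ventral contrasts, and Kmt2b and Prkra lie to the right in those.

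Among the nuclear proteins, Kmt2b showed a graded pattern. Its single probe set, 1452916_at, stood at 8.90, 8.80 and 8.82 in the intermediate pieces of animals 1, 2 and 3, at 8.96, 9.08 and 9.13 in the dorsal pieces, and at 8.65, 8.54 and 8.67 in the ventral pieces. All 3 dorsal values lay above all 3 intermediate values, and these above all 3 ventral values, with no overlap. Dorsal exceeded ventral pieces by 0.43 ± 0.06 on the log2 scale (SE, n = 3; 1.35-fold, adjusted p = 0.00333), higher in 3 of 3 animals. The intermediate pieces exceeded the ventral by 0.22 (1.16-fold, adjusted p = 0.0388) and lay below the dorsal by the same size (-0.22, 95% interval -0.37 to -0.07, adjusted p = 0.0563). The latter missed the threshold but passed it in a fit of 1 probe set per gene (adjusted p = 0.0439). Of 22 alternative fits, 17 left intermediate minus dorsal uncalled (adjusted p up to 0.345). The difference between dorsal and ventral pieces missed the threshold without animal 2 (adjusted p = 0.062) or animal 3 (adjusted p = 0.0551), and that between intermediate and ventral pieces did so without any 1 of the animals (adjusted p = 0.0603 to 0.208) and without 8 of the 9 single arrays.

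Kmt2b acts beside a family of H3K4 methyltransferases and their shared subunits. Of 16 genes of these complexes, itself included, 8 were called higher and 1 lower in dorsal than in ventral pieces, where 24.7% of genes were called higher and 28.6% lower, with a list median of 0.17. In intermediate against ventral pieces 7 were called higher and 3 lower, where 23.3% and 24.7% of genes were, and in intermediate against dorsal pieces 1 was called higher and 4 lower, where 15.6% and 13.9% were. These shares over all genes are the background of each gene list described further on, and no list was tested as a group. The paralog Kmt2a, the founding member of the family, had the same order of regions as Kmt2b: -0.48 for intermediate minus dorsal (adjusted p = 0.00412), 0.46 for intermediate minus ventral (adjusted p = 0.00234) and 0.94 for dorsal minus ventral (adjusted p = 0.000221). Kmt2d followed with -0.31, 0.22 and 0.53 in those contrasts (adjusted p = 0.00982, 0.0164 and 0.000745). Kmt2c, the paralog of Kmt2d with a like role, was called lower in intermediate than in ventral pieces (-0.23, adjusted p = 0.0321), and its dorsal minus ventral difference was -0.02 (adjusted p = 0.806). Other called members were Psip1, the chromatin reader that ties Kmt2a to its targets, 0.54 higher in dorsal than in ventral pieces (adjusted p = 0.00017), Setd1b, another methyltransferase, 0.46 higher (adjusted p = 0.00146), and the core subunit Ash2l, the single gene called lower in that contrast (-0.40, adjusted p = 0.0028).

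Taf1 differed by little. Probe set 1455513_at stood at 10.22, 10.12 and 10.07 in intermediate pieces of animals 1 to 3, at 10.21, 10.22 and 10.12 in dorsal pieces, and at 10.09, 9.99 and 10.06 in ventral pieces. The ventral values lay below all dorsal values, while the intermediate values spanned both. Dorsal minus ventral was 0.13 ± 0.04 (SE, n = 3; 1.10-fold, adjusted p = 0.0444), and the F test missed the threshold (adjusted p = 0.0887). That call was lost without any 1 of the animals (adjusted p = 0.0769 to 0.232), without 8 of 9 single arrays, in a fit of those 2 regions alone (adjusted p = 0.135), and with each array centred on its median (0.09, adjusted p = 0.166). The other probe set of Taf1, 1447417_at, stood at 2.31 in the intermediate piece of animal 1 and at 2.26 on the other 8 arrays, near the floor, and was called in no contrast.

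The other subunits of TFIID, which recognises core promoters, were mixed. Of 13 subunits tested, Taf1 included, 3 were called higher and 4 lower in dorsal than in ventral pieces, and the median difference was 0.00. Taf13 was the most different, with -0.88 for intermediate minus ventral (adjusted p = 0.000326) and -1.09 for dorsal minus ventral (adjusted p = 1e-04). Taf7 (-0.68, adjusted p = 0.00717), Taf11 (-0.63, adjusted p = 0.027) and Taf10 (-0.44, adjusted p = 0.00612) were also lower in dorsal than in ventral pieces. In intermediate against dorsal pieces 2 subunits were called in each direction, and in intermediate against ventral pieces 0 higher and 2 lower.

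Thap1 passed no test by either probe set. Probe set 1455003_at stood at 8.08, 7.96 and 8.02 in intermediate, at 7.71, 7.96 and 8.06 in dorsal and at 8.05, 8.09 and 8.09 in ventral pieces of animals 1 to 3. The regions overlapped except that the dorsal piece of animal 1 lay below all other arrays. The 95% intervals of the differences were -0.13 to 0.34 for intermediate minus dorsal, -0.29 to 0.17 for intermediate minus ventral and -0.40 to 0.06 for dorsal minus ventral, so differences of about those sizes are not excluded by these arrays. Probe set 1429282_at ran from 5.97 to 6.35 in intermediate, 5.74 to 5.97 in dorsal and 5.93 to 6.10 in ventral pieces, and its largest difference, 0.25 ± 0.12 for intermediate minus dorsal, had an adjusted p of 0.224. Its dorsal minus ventral difference, -0.14 (adjusted p = 0.422), was called in a fit of those 2 regions alone (adjusted p = 0.0388). Of 20 alternative fits, 17 left that difference uncalled (adjusted p up to 0.896).

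Among the relatives and partners of Thap1, the share of called genes was near or below that of all genes. Of 10 tested genes of the THAP domain family and THAP1's partners, itself included, 1 was called higher and 1 lower in intermediate pieces than in dorsal ones, 1 and 3 against ventral pieces, and 1 and 2 in dorsal against ventral pieces, where 29.5%, 48% and 53.3% of all genes were called in either direction. Thap2 was lower in intermediate than in ventral pieces (-0.52, adjusted p = 0.00718), and Thap12 was lower in intermediate (-0.27, adjusted p = 0.00649) and dorsal pieces (-0.31, adjusted p = 0.00336) than in ventral ones. The paralogs Thap3, Thap4, Thap7 and Thap11 were called in no contrast. Pawr, whose product PAR-4 binds THAP1, gave 1.22 for intermediate minus dorsal (adjusted p = 0.00567), -0.66 for intermediate minus ventral (adjusted p = 0.0202) and -1.89 for dorsal minus ventral (adjusted p = 0.000563). Ogt, an enzyme that modifies the THAP1 partner HCF-1, gave -0.43 for intermediate minus dorsal (adjusted p = 0.000715) and 0.60 for dorsal minus ventral (adjusted p = 8.67e-05).

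Ciz1 came close to a call. Its probe set 1448779_at, designed on a RefSeq transcript, stood at 8.32, 8.32 and 8.40 in intermediate, at 8.32, 8.67 and 8.39 in dorsal and at 8.09, 8.23 and 8.24 in ventral pieces of animals 1 to 3. The 3 ventral values lay below every intermediate and dorsal value. Dorsal minus ventral was 0.27 ± 0.08 (SE, n = 3; 95% interval 0.06 to 0.48, adjusted p = 0.0504, and 0.0396 in a fit of 1 probe set per gene), and intermediate minus ventral was 0.16 ± 0.08 (adjusted p = 0.213). The dorsal piece of animal 2 was the highest array, and without that array the differences were 0.17 (adjusted p = 0.0341) and 0.16 (adjusted p = 0.0278), both called. Of 21 alternative fits, 15 left dorsal minus ventral uncalled (adjusted p up to 0.198) and 19 left intermediate minus ventral uncalled (adjusted p up to 0.549). Of 10 genes of S-phase entry with which CIZ1 works, Ciz1 included, 1 was called higher and 6 lower in dorsal than in ventral pieces and 2 higher and 5 lower in intermediate than in ventral pieces, with list medians of -0.48 and -0.58, where 24.7% of all genes were called higher and 28.6% lower in the first contrast and 23.3% and 24.7% in the second. Cdkn1a itself, the inhibitor that gave CIZ1 its name, was the gene higher in dorsal than in ventral pieces (1.69, adjusted p = 0.000432; 1.03 for intermediate minus ventral, adjusted p = 0.00254; -0.66 for intermediate minus dorsal, adjusted p = 0.0179). The replication genes Cdc6 (-1.27, adjusted p = 0.00666), Ccna2 (-1.11, adjusted p = 0.000914) and Mcm2 (-0.80, adjusted p = 0.0018) were lower in dorsal than in ventral pieces. The 4 measured cell cycle markers were all called lower in intermediate and in dorsal pieces than in ventral ones, with a list mean of 7.83 to 7.94 in intermediate, 7.77 to 8.09 in dorsal and 8.87 to 9.11 in ventral pieces, and the part of dividing cells in these values was not tested. In intermediate against dorsal pieces 1 gene of the S-phase list was called higher and 2 lower.

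Prkra values ran in the same order of regions as those of Kmt2b. Probe set 1448923_at, designed on a RefSeq transcript, stood at 9.65, 9.63 and 9.63 in intermediate, at 9.67, 9.88 and 9.79 in dorsal and at 9.25, 9.34 and 9.29 in ventral pieces of animals 1 to 3. Ventral values were the lowest and dorsal values the highest, with no overlap between any regions. Dorsal exceeded ventral pieces by 0.49 ± 0.05 (SE, n = 3; 1.40-fold, adjusted p = 0.00105), and intermediate exceeded ventral pieces by 0.34 ± 0.05 (1.27-fold, adjusted p = 0.00432), each in 3 of 3 animals. Intermediate minus dorsal was -0.15 ± 0.05 (95% interval -0.27 to -0.03, adjusted p = 0.0844). Without animal 3 the difference between intermediate and ventral pieces was 0.34 with an adjusted p of 0.0829. The intermediate pieces of animals 2 and 3 carried the same deposited value, which makes the spread there look small. The other probe set of Prkra, 1447737_at, was at the floor on all 9 arrays and was not tested.

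Prkra's partners were mixed. Of 13 tested genes of PACT, PKR and eIF2alpha stress signalling, Prkra included, 5 were called higher and 3 lower in dorsal than in ventral pieces, 5 higher and 2 lower in intermediate than in ventral pieces, and 1 higher and 0 lower in intermediate pieces than in dorsal ones. Eif2ak2, which encodes PKR itself, was called in no contrast (0.11 ± 0.05 for dorsal minus ventral, adjusted p = 0.139). Adar, an RNA-editing enzyme of double-stranded RNA, was 0.72 higher in intermediate (adjusted p = 0.00205) and 0.59 higher in dorsal pieces (adjusted p = 0.00316) than in ventral ones. Ago2, the slicer of small-RNA silencing, was 0.49 (adjusted p = 0.00271) and 0.42 (adjusted p = 0.00335) higher. Eif2ak1, another eIF2alpha kinase, was lower in dorsal than in ventral pieces (-0.64, adjusted p = 0.0227). Neuron markers ran in the ventral contrasts as Kmt2b and Prkra did: 6 of 8 were called higher and 1 lower in intermediate than in ventral pieces, and 5 higher and 2 lower in dorsal than in ventral pieces, with a list mean of 13.2 to 13.3 in intermediate, 12.9 to 13.0 in dorsal and 12.5 in ventral pieces. In intermediate against dorsal pieces 5 were called higher, opposite in sign to the differences of Kmt2b and Prkra there, and 2 were called lower, as those were in sign. The dorsal horn neuron markers had the regional order of Kmt2b and Prkra (levels given above). All 8 were called lower in intermediate than in dorsal pieces and higher in dorsal than in ventral pieces. In intermediate against ventral pieces 5 of the 8 were called higher and 0 lower. The part of neuron content in the values of Kmt2b and Prkra was not tested.

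**Figure D2:**
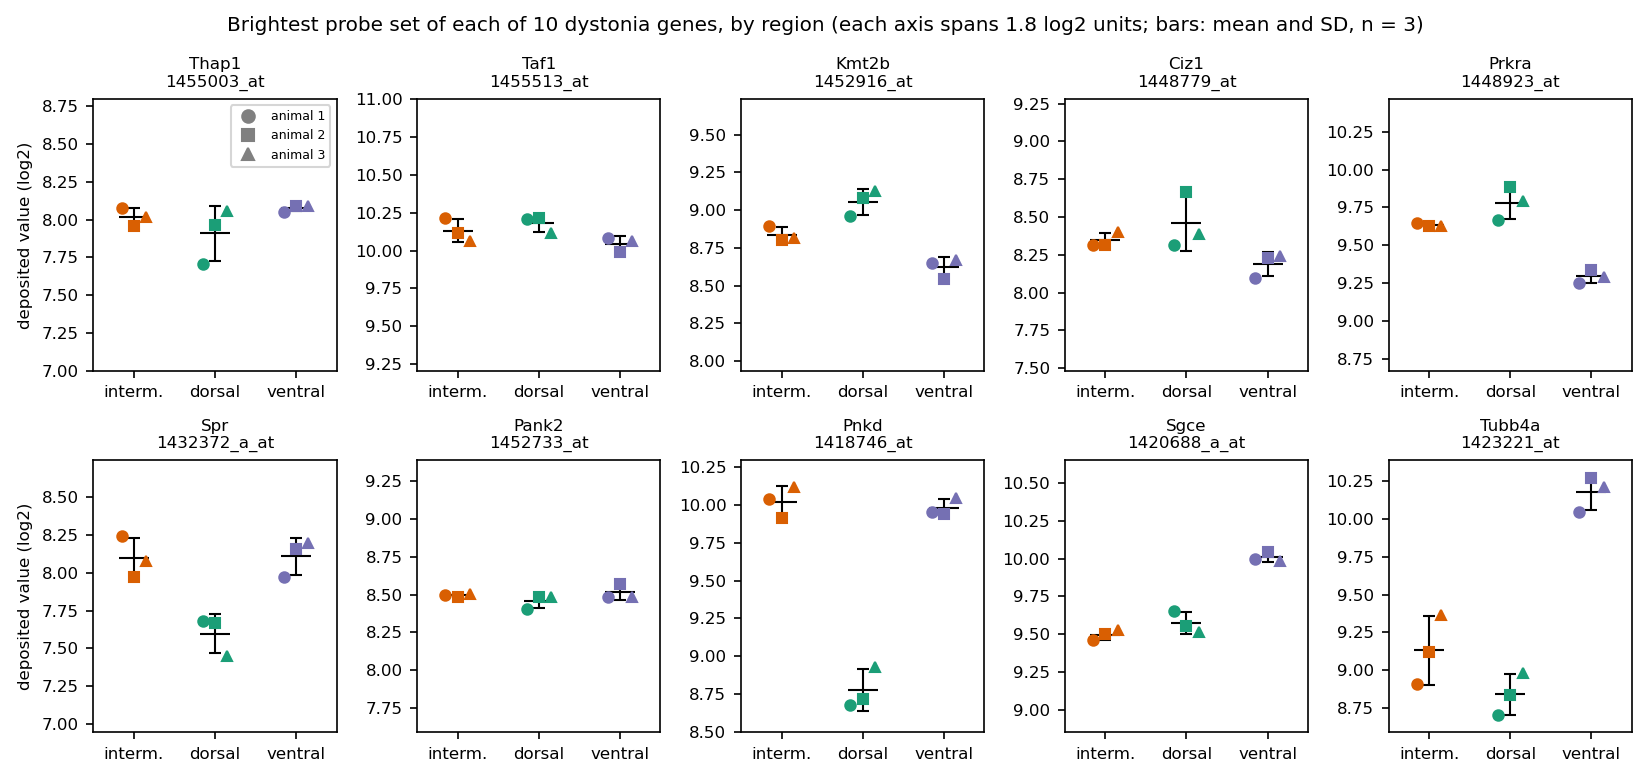
Deposited values (log2, vertical axes, each spanning 1.8 units) of the brightest probe set of each of the 10 genes in intermediate, dorsal and ventral pieces. Points are arrays, shapes are animals, and bars are the mean and SD of 3 arrays; the dorsal points of Pnkd and Spr sit below the other regions and the ventral points of Tubb4a and Sgce above them.

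Spr was low in dorsal pieces. Its single probe set, 1432372_a_at, stood at 8.24, 7.97 and 8.08 in intermediate, at 7.68, 7.67 and 7.45 in dorsal and at 7.97, 8.16 and 8.20 in ventral pieces of animals 1 to 3. The dorsal values lay below all others without overlap, and the intermediate and ventral values covered the same range. Intermediate exceeded dorsal pieces by 0.50 ± 0.12 (SE, n = 3; 1.41-fold, adjusted p = 0.0394), in 3 of 3 animals, and dorsal lay below ventral pieces by a similar size (-0.51, 1.43-fold lower, adjusted p = 0.0207). Intermediate minus ventral was -0.01, with a 95% interval of -0.32 to 0.29. The first call was lost without any 1 of them (adjusted p = 0.127 to 0.222) and without 8 of 9 single arrays (0.0571 to 0.135), and the second without animal 2 (adjusted p = 0.12) or 3 (adjusted p = 0.169) and without 5 of 9 arrays (0.0517 to 0.0871). Both missed the threshold in fits of the 2 regions compared alone (adjusted p = 0.0893 and 0.0721), and the differences kept their direction throughout.

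Pts, Qdpr and Pcbd2, of tetrahydrobiopterin synthesis and recycling, were also called low in dorsal pieces. Of 9 tested genes of the synthesis and use of this cofactor, Spr included, 6 were called higher and 0 lower in intermediate pieces than in dorsal ones, with a list median of 0.37, where 15.6% and 13.9% of all genes were, and 1 higher and 5 lower in dorsal than in ventral pieces, with a median of -0.42, where 24.7% and 28.6% of all genes were. Pts, which acts just before Spr in the synthesis, gave 0.44 for intermediate minus dorsal (adjusted p = 0.00506) and -0.54 for dorsal minus ventral (adjusted p = 0.000968). Qdpr, which regenerates the cofactor after use, gave 0.37 (adjusted p = 0.00509) and -0.40 (adjusted p = 0.00142) in those contrasts, and Pcbd2, of the same recycling pathway, 0.43 (adjusted p = 0.0101) and -0.64 (adjusted p = 0.00119). In intermediate against ventral pieces 1 gene was called in each direction, and the median was -0.01. The lower one was Ddc, aromatic amino acid decarboxylase, which makes dopamine and serotonin from their precursors (-1.34, adjusted p = 0.000303). Gch1, the entry enzyme of the pathway and itself a dystonia gene, was at the floor on 8 of 9 arrays, and Th, Tph1 and Tph2, the hydroxylases that use the cofactor to make dopamine and serotonin, were at the floor on all 9, so the arrays gave no regional level for them.

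**Figure D3:**
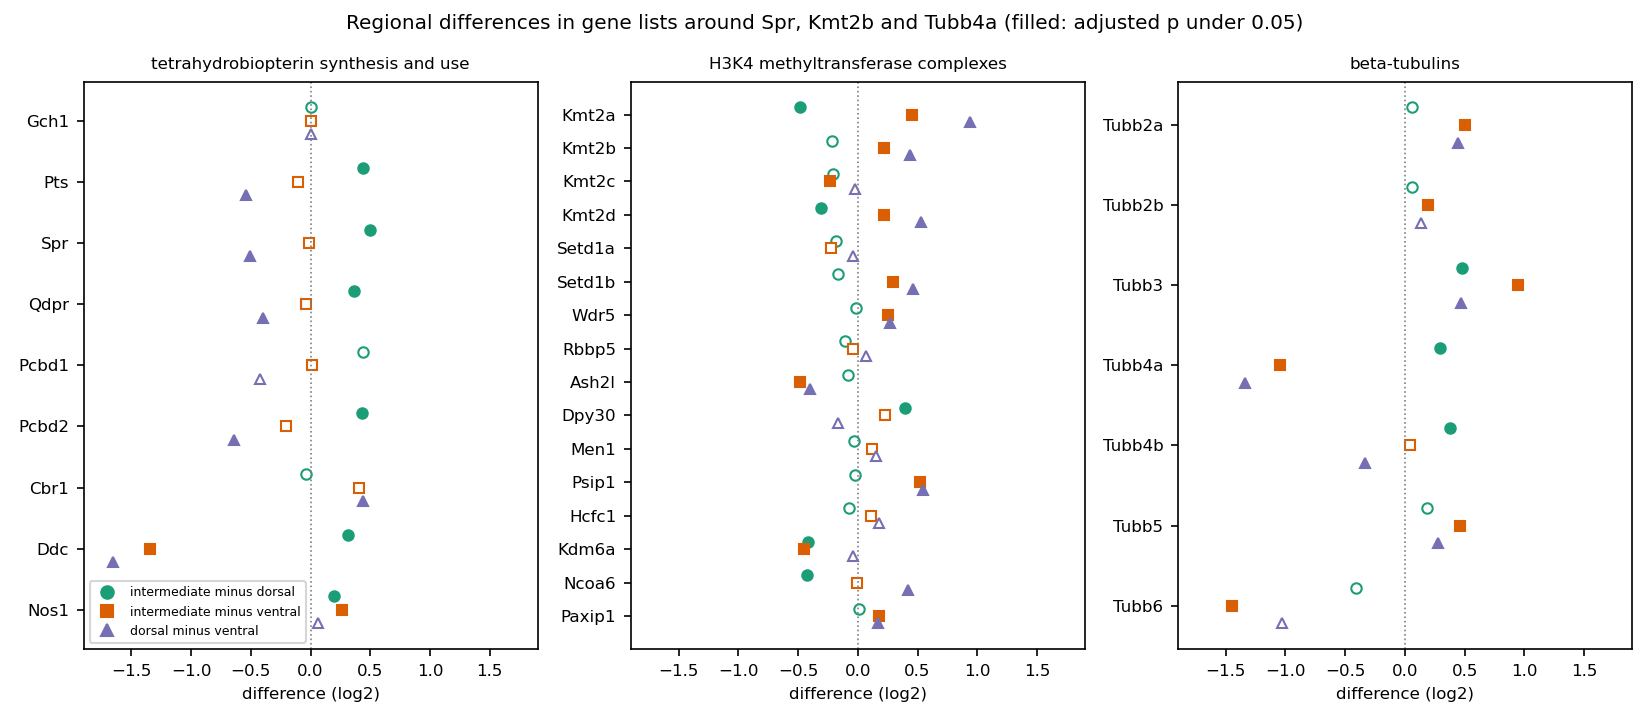
Differences (log2, horizontal axes) of the tested genes of tetrahydrobiopterin synthesis and use, of the H3K4 methyltransferase complexes and of the beta-tubulins, for intermediate minus dorsal (circles), intermediate minus ventral (squares) and dorsal minus ventral (triangles); filled symbols have an adjusted p under 0.05. Circles of Pts, Spr, Qdpr and Pcbd2 lie between 0.37 and 0.50 and their triangles between -0.64 and -0.40, triangles of Kmt2a, Kmt2b and Kmt2d lie between 0.43 and 0.94, and Tubb4a and Tubb6 lie left of the other beta-tubulins in the ventral contrasts.

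Pank2 was called in no contrast by any of its probe sets. Probe set 1452733_at stood at 8.495, 8.48 and 8.51 in intermediate, at 8.40, 8.48 and 8.48 in dorsal and at 8.48, 8.57 and 8.48 in ventral pieces of animals 1 to 3, and all regions overlapped. Its 95% intervals were the narrowest among the genes with no call, -0.04 to 0.11 for intermediate minus dorsal, -0.10 to 0.06 for intermediate minus ventral and -0.13 to 0.02 for dorsal minus ventral. The value 8.48 was repeated exactly on 4 arrays, so its spread may be understated. Of 21 alternative fits, 20 left the dorsal minus ventral difference of 1452733_at uncalled, and quantile normalization gave a call (-0.09, adjusted p = 0.0405). Probe set 1431948_a_at ran from 8.28 to 8.43 in intermediate, 8.09 to 8.37 in dorsal and 8.40 to 8.48 in ventral pieces, and no contrast was called (adjusted p = 0.189 to 0.591). The remaining probe set, 1458358_at, was at the floor on 8 arrays and at 2.34 in the ventral piece of animal 2.

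Of the paralogs of Pank2, Pank1 and Pank3 were called between regions. Pank1 was higher in intermediate than in dorsal pieces (0.82, adjusted p = 0.00161) and lower in dorsal than in ventral pieces (-0.68, adjusted p = 0.000809). Pank3 was lower in intermediate (-0.58, adjusted p = 0.00222) and in dorsal pieces (-0.73, adjusted p = 0.000835) than in ventral ones, and Pank4 was called in no contrast. Of the 8 genes of coenzyme A synthesis, 1 was called in each direction in intermediate against dorsal pieces, 0 higher and 2 lower in intermediate against ventral pieces, and 1 higher and 3 lower in dorsal against ventral pieces. Coasy, which completes the synthesis, was among the lower ones in both ventral contrasts (-0.70, adjusted p = 0.00566, and -0.65, adjusted p = 0.00607). Of 8 genes altered in brain iron accumulation disorders, a group that Pank2 and Coasy belong to, 1 was called higher and 4 lower in each ventral contrast and 0 in the contrast of intermediate with dorsal pieces. The greatest called difference was that of Fa2h, an enzyme that hydroxylates the fatty acids of myelin lipids (-2.23, adjusted p = 0.00194, and -1.99, adjusted p = 0.00212).

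Pnkd had the greatest difference of the 10 genes between intermediate and dorsal pieces. Probe set 1418746_at, designed on a RefSeq transcript, stood at 10.04, 9.91 and 10.12 in intermediate, at 8.67, 8.72 and 8.93 in dorsal and at 9.95, 9.94 and 10.04 in ventral pieces of animals 1 to 3. Every dorsal value lay below every other value, and intermediate and ventral values overlapped. Intermediate exceeded dorsal pieces by 1.25 ± 0.05 (SE, n = 3; 2.38-fold, adjusted p = 0.000427), and dorsal lay below ventral pieces by a like size (-1.21 ± 0.05, 2.31-fold lower, adjusted p = 0.000101), each in 3 of 3 animals. Intermediate minus ventral was 0.04, with a 95% interval of -0.08 to 0.16. The calls against dorsal pieces held with each animal, each array and each other setting changed in turn.

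The other probe set of Pnkd gave another pattern. Probe set 1451399_at stood at 9.29, 9.39 and 9.45 in intermediate, at 8.72, 9.07 and 8.98 in dorsal and at 9.72, 9.81 and 9.90 in ventral pieces of animals 1 to 3, with no overlap between any regions. Here intermediate pieces lay between the others: 0.46 ± 0.06 above dorsal (1.37-fold, adjusted p = 0.00685) and below ventral (-0.43 ± 0.06, 1.35-fold lower, adjusted p = 0.00434), while dorsal minus ventral was -0.89 (1.85-fold lower, adjusted p = 0.000366). Without animal 3 the differences of the intermediate pieces were 0.45 (adjusted p = 0.119) and -0.42 (adjusted p = 0.0858), and without animal 1 the first was 0.40 (adjusted p = 0.0746). The first missed the threshold in a fit of those 2 regions alone (adjusted p = 0.0685). Which transcripts of Pnkd each probe set measures was not tested.

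Whether probe sets of the same gene differed in regional pattern was tested on their per-array difference, the other probe set minus the brightest, in a limma fit over all 11241 such pairs of the array. Among the genes described here 2 of 6 pairs were called by the F test, those of Pnkd and Sgce, where 39.8% of all pairs were. By contrast, 1 pair differed for intermediate minus dorsal, 2 for intermediate minus ventral and 2 for dorsal minus ventral, where 12.2%, 29.6% and 38.5% of all pairs did. For Pnkd, the contrasts of 1451399_at were lower than those of 1418746_at by -0.79 ± 0.07 for intermediate minus dorsal (adjusted p = 0.00158) and by -0.47 ± 0.07 for intermediate minus ventral (adjusted p = 0.00387), and higher by 0.32 ± 0.07 for dorsal minus ventral (adjusted p = 0.0133). The Pnkd pair was called by the F test without any 1 animal or array as well. Both probe sets placed dorsal pieces lowest, and they parted on whether intermediate pieces matched the ventral ones.

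Genes near Pnkd in function were called in both directions. The list held 8 genes for glyoxalases, related enzymes and RIM proteins, Pnkd included. Of these, 4 were called higher and 1 lower in intermediate pieces than in dorsal ones, against 15.6% and 13.9% over the array. The list median was 0.36. Against ventral pieces, 2 were called higher and 3 lower in intermediate pieces (23.3% and 24.7% over the array) and 1 higher and 3 lower in dorsal pieces (24.7% and 28.6%). Glo1, the glyoxalase that clears methylglyoxal, gave 0.36 for intermediate minus dorsal (adjusted p = 0.00974), -0.43 for intermediate minus ventral (adjusted p = 0.00295) and -0.79 for dorsal minus ventral (adjusted p = 0.000364). Rims1, an active-zone scaffold, was higher in intermediate (1.49, adjusted p = 0.000411) and dorsal pieces (1.12, adjusted p = 0.000482) than in ventral ones. The other RIM gene of the list, Rims2, was lower in intermediate than in ventral (-0.42, adjusted p = 0.000623) and dorsal pieces (-0.36, adjusted p = 0.00183). Lactb2, a metallo-beta-lactamase-fold ribonuclease of mitochondria, was lower in dorsal than in ventral pieces (-0.96, adjusted p = 0.00986), and Haghl, a relative of glyoxalase II, was higher in intermediate than in dorsal pieces (0.44, adjusted p = 0.0139). Of the marker lists, 3 had their lowest mean in dorsal pieces without overlap. They were the ependymal markers, 4 of 4 called in both contrasts with dorsal pieces (list mean 5.98 to 6.49 in intermediate, 3.27 to 3.83 in dorsal and 5.69 to 5.84 in ventral pieces), the motor neuron markers, 1 of 3 measured called in intermediate against dorsal and 2 of 3 in dorsal against ventral pieces (levels given above), and the oligodendrocyte precursor markers, 5 of 6 called in intermediate against dorsal and 6 of 6 in dorsal against ventral pieces (10.9 to 11.1, 10.7 to 10.8 and 11.6 to 11.7 in the same order). The oligodendrocyte precursor markers were also called lower in intermediate than in ventral pieces, 6 of 6 with a median of -0.64, a contrast in which Spr and Pnkd 1418746_at were not called. Of the motor neuron markers, Isl1 alone was called for intermediate minus dorsal (4.53, adjusted p = 0.000852). Prph was called lower in intermediate than in ventral pieces as well (-7.15, adjusted p = 7.87e-05). The part of these cells in the values of Pnkd and Spr was not tested.

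**Figure D4:**
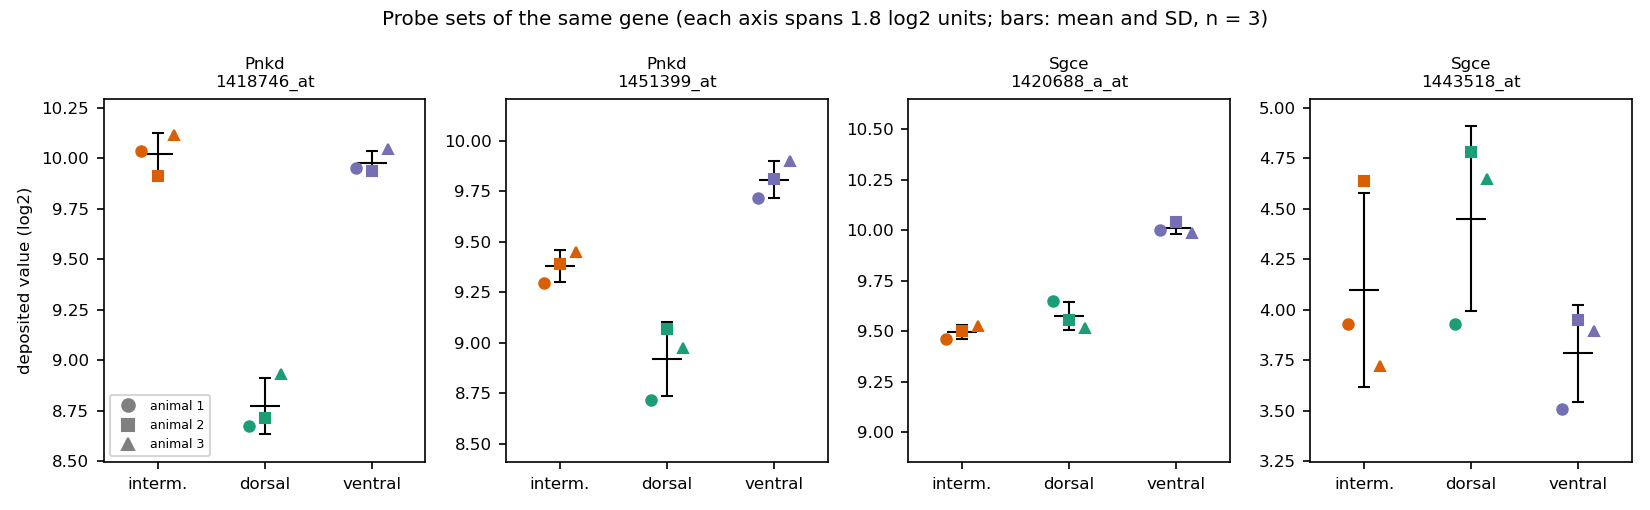
Deposited values (log2, vertical axes, each spanning 1.8 units) of both probe sets of Pnkd and both of Sgce in intermediate, dorsal and ventral pieces; points are arrays, shapes are animals, and bars are the mean and SD of 3 arrays. In Pnkd 1418746_at the intermediate and ventral points overlap whereas in 1451399_at they do not, and the ventral points of Sgce 1420688_a_at are the highest whereas those of 1443518_at reach no higher than 3.95.

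Sgce was high in ventral pieces. Probe set 1420688_a_at, designed on a RefSeq transcript, stood at 9.46, 9.50 and 9.53 in intermediate, at 9.65, 9.56 and 9.51 in dorsal and at 9.999, 10.04 and 9.99 in ventral pieces of animals 1 to 3. Ventral values lay above all others, and intermediate and dorsal values overlapped. Intermediate minus ventral was -0.51 ± 0.04 (SE, n = 3; 1.43-fold lower, adjusted p = 0.00108) and dorsal minus ventral was -0.43 ± 0.04 (1.35-fold lower, adjusted p = 0.00124), each in 3 of 3 animals. Intermediate minus dorsal was -0.08, with a 95% interval of -0.19 to 0.03. Both calls held with each animal, each array and each other setting changed in turn.

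The other probe set of Sgce, 1443518_at, went the other way. It stood at 3.93, 4.64 and 3.72 in intermediate, at 3.93, 4.78 and 4.64 in dorsal and at 3.51, 3.95 and 3.89 in ventral pieces of animals 1 to 3, and all regions overlapped. Dorsal minus ventral was 0.67 ± 0.21 (SE, n = 3; 95% interval 0.11 to 1.23, adjusted p = 0.0601), in 3 of 3 animals, and was not called, although it was in a fit of those 2 regions alone (adjusted p = 0.0398). Of 21 alternative fits, 16 left dorsal minus ventral uncalled for this probe set (adjusted p up to 0.27). Set against the brightest probe set, its difference was higher by 1.10 ± 0.22 for dorsal minus ventral (adjusted p = 0.00879) and by 0.83 ± 0.22 for intermediate minus ventral (adjusted p = 0.0321). The F test of this pair (adjusted p = 0.0174) missed the threshold without animal 1 (adjusted p = 0.0703) or animal 2 (adjusted p = 0.133), without the dorsal piece of animal 2 (adjusted p = 0.0508) and without the ventral piece of animal 1 (adjusted p = 0.0599) or 2 (adjusted p = 0.0794). Over the 9 arrays the 2 probe sets of Sgce correlated at -0.54 and those of Pnkd at 0.84. The pairs of Thap1, Taf1 and Pank2 were not called (adjusted p = 0.238 to 0.789).

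The complex that sarcoglycans belong to links the cytoskeleton to the matrix. Of its 10 tested genes, Sgce included, 1 was called higher and 4 lower in intermediate than in ventral pieces, with a list median of -0.26, 1 higher and 3 lower in dorsal than in ventral pieces, and 1 higher and 0 lower in intermediate pieces than in dorsal ones. Sspn, sarcospan, was lower in intermediate (-1.29, adjusted p = 0.000387) and dorsal pieces (-1.54, adjusted p = 0.000135) than in ventral ones. The paralog Sgcb was lower in both as well (-0.23, adjusted p = 0.0396, and -0.59, adjusted p = 0.00135) and higher in intermediate than in dorsal pieces (0.37, adjusted p = 0.0143). Dtnb, beta-dystrobrevin, was higher in intermediate (0.40, adjusted p = 0.0479) and dorsal pieces (0.69, adjusted p = 0.00682) than in ventral ones. Dmd, dystrophin, was lower in intermediate than in ventral pieces (-0.61, adjusted p = 0.0209). Sgca and Sgcd were at the floor on all 9 arrays. Sgce is imprinted, and of 8 tested genes of its chromosomal neighbourhood, itself included, 2 were called higher and 0 lower in intermediate pieces than in dorsal ones, 2 in each direction in intermediate against ventral pieces, and 1 higher and 3 lower in dorsal against ventral pieces. Asb4, an ankyrin-repeat protein, had the greatest differences, 3.12 for intermediate minus dorsal (adjusted p = 0.000323), 1.26 for intermediate minus ventral (adjusted p = 0.000821) and -1.85 for dorsal minus ventral (adjusted p = 0.000196). Pon2, a paraoxonase, was lower in intermediate (-0.78, adjusted p = 0.00114) and dorsal (-1.17, adjusted p = 0.000264) than in ventral pieces, and Ppp1r9a, an actin-binding protein of synapses, higher (0.59, adjusted p = 0.0021, and 0.58, adjusted p = 0.0017). Peg10, the neighbour that shares the imprinted control of Sgce, was at the floor on 7 of 9 arrays.

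Tubb4a showed the greatest ventral excess of the 10 genes. Its single probe set, 1423221_at, stood at 8.91, 9.12 and 9.36 in intermediate, at 8.71, 8.83 and 8.98 in dorsal and at 10.05, 10.27 and 10.21 in ventral pieces of animals 1 to 3. The ventral values lay above all others, and intermediate and dorsal values overlapped. Intermediate minus ventral was -1.05 ± 0.07 (SE, n = 3; 2.06-fold lower, adjusted p = 0.000585), and dorsal minus ventral was -1.34 ± 0.07 (2.53-fold lower, adjusted p = 0.000186), each in 3 of 3 animals. These calls held with each animal, each array and each other setting changed in turn. Intermediate exceeded dorsal pieces by 0.29 ± 0.07 within animals, in 3 of 3 (1.22-fold, adjusted p = 0.0379). That call was lost without any 1 animal (adjusted p = 0.073 to 0.184), without 8 of 9 single arrays, without the animal in the model (adjusted p = 0.158) and in a fit of those 2 regions alone (adjusted p = 0.0806).

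Beta-tubulins pair with alpha-tubulin to build microtubules, and those called in the ventral contrasts had both signs. Of 7 tested, Tubb4a included, 4 were called higher and 2 lower in intermediate than in ventral pieces, 3 higher and 2 lower in dorsal than in ventral pieces, and 3 higher and 0 lower in intermediate pieces than in dorsal ones. Tubb3, the neuronal beta-tubulin, was 0.94 higher in intermediate than in ventral pieces (adjusted p = 0.00056). Tubb2a (0.50, adjusted p = 0.00189), Tubb5 (0.46, adjusted p = 0.00462) and Tubb2b (0.20, adjusted p = 0.0192) were higher too. Tubb6 was lower like Tubb4a (-1.45 ± 0.40, adjusted p = 0.0452), and Tubb4b gave 0.04 (adjusted p = 0.246) there and -0.33 for dorsal minus ventral (adjusted p = 0.000451). Tubb1 was at the floor on all arrays. Whether the probes of one beta-tubulin also bind RNA of another was not tested.

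Markers of myelinating and other glial cells moved with Tubb4a and Sgce. Of 9 measured oligodendrocyte and myelin markers 8 were called lower and 0 higher in intermediate and in dorsal pieces than in ventral ones, with medians of -1.32 and -1.33, and 0 were called between intermediate and dorsal pieces. Their list mean was 11.49 to 11.96 in intermediate, 11.4 to 11.8 in dorsal and 13.0 to 13.1 in ventral pieces, and none of them was at the floor on all arrays. All 7 astrocyte markers were called lower in both contrasts as well (12.7 to 12.8 in intermediate, 12.6 to 12.7 in dorsal and 13.5 in ventral pieces), and 5 of 6 endothelial markers (7.06 to 7.15, 6.85 to 7.09 and 7.73 to 7.86 in the same order). Oligodendrocyte precursor markers (6 of 6) and the measured cell cycle markers (4 of 4) were called lower in both contrasts too. Microglial markers were called lower in intermediate than in ventral pieces for 7 of 7 genes and in dorsal than in ventral pieces for 0. For the 3 measured Schwann cell markers those counts were 3 and 0. The part of these cell types in the differences of Tubb4a and Sgce was not tested.

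The other genes tied to dystonia, among them those of the torsin and cAMP pathways, were called in both directions. Of 18 tested, 9 were called higher and 2 lower in intermediate than in ventral pieces and 7 higher and 1 lower in dorsal than in ventral pieces, with list medians of 0.15 and 0.08, where 23.3% of all genes were called higher and 24.7% lower in the first contrast and 24.7% and 28.6% in the second, whereas in intermediate against dorsal pieces 3 were called in each direction. Among them, Hpca, a neuronal calcium sensor, was higher in intermediate (1.71, adjusted p = 0.000499) and dorsal pieces (1.81, adjusted p = 0.000246) than in ventral ones, and Cacna1b, a presynaptic calcium channel, likewise (1.35, adjusted p = 0.000295, and 1.78, adjusted p = 7.5e-05). Slc30a10, a manganese exporter, followed with 1.25 (adjusted p = 0.000479) and 1.30 (adjusted p = 0.000243). Col6a3, a collagen of the matrix, was lower in intermediate than in dorsal (-1.86, adjusted p = 0.0326) and ventral pieces (-2.94, adjusted p = 0.00467).

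The genes described here were set beside each other and beside the rest of the array by Pearson correlation over the 9 arrays, which share regions and animals, as a description. By their brightest probe sets, Kmt2b and Prkra correlated at 0.93, Sgce and Tubb4a at 0.90 and Spr and Pnkd at 0.89, whereas Prkra and Tubb4a correlated at -0.92. Among 7827 genes called by the F test and above the floor on all arrays, the closest to Pnkd were Cds2 (0.997), Ldhb (0.996) and Cdh10 (0.995). Those closest to Spr were Sh3bgr (0.964), Dst (0.964) and Tmeff1 (0.960). Kmt2b was matched best by Slc6a6 (0.992), Fam214a (0.983) and Apc2 (0.981), and Prkra by Apc (0.997), Stmn4 (0.996) and Ip6k1 (0.996). For Sgce they were Bmpr1b (0.997), Ctdsp1 (0.996) and Ppp1r15b (0.995), and for Tubb4a Ngdn (0.996), Prr18 (0.995) and Ccp110 (0.994).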

How the data were processed

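The authors' deposited values, a single one per probe set and array, were read here as log2 expression because they run from 2.146 to 16.27. Per the labels' protocols, an Affymetrix 3' kit made biotin-labelled cRNA from total RNA. The steps from probe signals to these values, including the floor, are not given in the sources used here, and a floor compresses differences of dim probe sets. Of 45037 probe sets, the platform annotation gave 34945 a single symbol, 932 several and 9160 none. Probe sets within 0.01 of the table's lowest value on all 9 arrays (14732) were left out, and 30305 were tested. limma 3.58.1 in R 4.3.3 (package data.table, version 1.17.8) fitted region and animal to all 9 arrays, leaving 4 residual degrees of freedom (prior 0.754). P-values are two-sided, Benjamini-Hochberg adjusted over all probe sets tested (or over all pairs of probe sets of the same gene), and called at 0.05. A gene was represented by its brightest probe set; tables and figures used Python 3.11.15, pandas 2.3.3 and matplotlib 3.10.9. The script was tested on simulated data. Values after ± are standard errors, and intervals are 95% intervals of the model.

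The animal numbers come from the titles. After region means were taken off, arrays of an animal correlated at -0.047 to 0.18 (9 pairs, 3 above 0.1) and arrays of different animals at -0.16 to 0.14 (18 pairs).

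The 10 genes, their pathway lists and the marker lists were chosen with earlier results of these data known. All probe sets of the 10 genes are named; of a list, at most 4 called genes by size of difference and the paralogs of the 10 genes; and the 3 best-correlated genes of each gene called by the F test. Ash2l, Eif2ak2, Gch1, Th, Tph1, Tph2, Peg10, Gad1 and Rims2 were named after their values were seen. Alternatives changed the animal block, normalisation, filter, ties, prior, unit, regions in the fit and arrays, 1 at a time.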

Additional observations from a re-analysis of the deposited data

How the results depend on the processing

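Of 17 calls of the 10 genes, 8 held under every alternative that gave a value for them: Prkra and Pnkd 1451399_at for dorsal minus ventral, Pnkd 1418746_at in both dorsal contrasts, and Sgce 1420688_a_at and Tubb4a in both ventral contrasts. Whether each call held with 1 probe set per gene or with the 2 compared regions alone was added after seeing the data. The other 9 were lost somewhere, mostly with fewer arrays, and 0 reversed. Of the 48 probe set results, 8 gained a call somewhere, 24 times over all alternatives. Among these was Prkra for intermediate minus dorsal without the dorsal array of animal 1 (-0.20, adjusted p = 0.0356). With 1 animal or array left out, 1 to 4 of 16 probe sets were called for intermediate minus dorsal (4 with all), 2 to 5 for intermediate minus ventral (5), 5 to 9 for dorsal minus ventral (8) and 4 to 8 by the F test (7), and 1 to 2 pairs differed (2). For intermediate minus dorsal, 2 were called with no filter on dim probe sets and 1 with the arrays of those 2 regions alone, both of which change the genes or samples in the fit. List genes called without 1 animal numbered 9 to 18 of 40 for intermediate minus dorsal, 37 to 49 of 68 for intermediate minus ventral and 49 to 62 of 72 for dorsal minus ventral. Without the replicate block, 2 calls were lost (Taf1 for dorsal minus ventral, adjusted p = 0.0578, and Tubb4a for intermediate minus dorsal, adjusted p = 0.158), 1 was gained (Kmt2b for intermediate minus dorsal, -0.22, adjusted p = 0.0261), and 4, 5 and 7 of the 16 probe sets were called in the 3 contrasts, against 4, 5 and 8. The block rests on animals named in the titles. With no filter, the Sgce pair missed the threshold (adjusted p = 0.0505). Centring each array on its median moved calls over all probe sets for intermediate minus dorsal to 5034 higher and 3082 lower, against 3515 and 3904, with a median shift of 0.07. Signs turned only for differences that had not been called, and for other probe sets of a gene. Centring gave 0.024 for Taf1 intermediate minus dorsal, and for intermediate minus ventral 0.012 for Spr and 0.0046 for Pank2. Leave-outs ran from -0.024 to 0.18 for Thap1 1455003_at intermediate minus dorsal, -0.045 to 0.20 for Thap1 1429282_at intermediate minus ventral, -0.18 to 0.0055 for Ciz1 intermediate minus dorsal, -0.15 to 0.080 for Spr and -0.043 to 0.015 for Pank2 1452733_at intermediate minus ventral, and -0.051 to 0.16 for Pank2 1431948_a_at intermediate minus dorsal. In place of the brightest probe set, another gave 0.12 for Thap1 (1429282_at), -0.43 for Pnkd (1451399_at) and 0.31 for Sgce (1443518_at) in intermediate minus ventral, 0.67 for Sgce in dorsal minus ventral and 0.015 for Taf1 (1447417_at) in intermediate minus dorsal. The cause of these changes was not tested. Thap1 1429282_at, Taf1, Ciz1, Prkra, Spr and Pank2 1452733_at had repeated values, so the setting of 9 distinct values gave none for them. Probe sets at the floor (1447737_at, and 1458358_at on 8 arrays) gave no regional level.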
